A study of Zea mays with 4 samples.

Results

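Calcium sensors and calcium-dependent kinases were followed in maize roots in which nitrate was supplied to one side only. The group holds 233 of the 54787 maize probes that have a single spot on a single array version, 128 of them on version A and 105 on version B. A probe belongs to it when the description in the array annotation names calmodulin, a calcium-dependent protein or kinase (CDPK), a calcium-binding or EF-hand protein, a calcium-transporting pump, calreticulin, calnexin or annexin. Probes described as calcineurin B, heat shock proteins or glutamate decarboxylase were left out. The rule reads the annotation text only. The descriptions come from the closest protein in a database: 134 of the 233 probes are named after a rice protein and 43 after a maize protein, and the 233 probes share 109 protein hits and 226 target sequences. Several probes can therefore report on one gene or on close copies of it, and probe numbers (MZ followed by digits) are used as names.

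Calcium carries signals in plant cells because its concentration in the cytosol is kept very low and rises briefly when channels open. Calmodulin and other proteins with EF-hands, a loop-and-helix fold that binds calcium, change shape on binding and then act on partners. CDPKs join a kinase and a calmodulin-like domain in one protein, so calcium switches them on directly. Pumps return calcium to the cell exterior or to stores, and calreticulin and calnexin hold calcium in the endoplasmic reticulum while they assist protein folding. In Arabidopsis, nitrate supply is known to raise cytosolic calcium, and CDPKs phosphorylate transcription factors of the nitrate response.

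The nitrate group was RNA from the part of the root given 1 mM nitrate for 1 h, labelled with Cy3. The control group was RNA from the other, nitrogen-free part of the same root system, which received 1 mM CaCl2 to make up for calcium, labelled with Cy5. All plants had grown for 6 days with 0.5 mM nitrate and then 2 days without nitrogen, and segments of 15 cm from the root tip were sampled at day 10. No genotype is given in the labels. There were 4 arrays, 2 replicates of each version, and the series text calls the 2 replicates biological, while nothing in the labels shows whether they came from separate plants. If they did not, the p-values measure only a technical spread.

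Cy3 marked nitrate on all 4 arrays, so a dye effect of a given probe cannot be told apart from an effect of nitrate. An effect of the CaCl2 given to the control side cannot be told apart from it either. Both sides belonged to one root system, so a change shared by both sides does not appear in the ratio. In bulk root tissue, a change in the number of cells of one type and a change of RNA per cell cannot be told apart either. The median deposited intensity of maize spots was 1572.5 to 1939 in the nitrate channel and 1438 to 1960 in the control channel. As a check of the labels, the highest probe of 11 for nitrate and nitrite reductase was nitrite reductase MZ00016104, which read 56670 and 53835 on the nitrate side, against 7814 and 8974 on the control side. It rose by 2.94 ± 0.49 on the log2 scale (SD, n = 2; limma adjusted p = 0.00903). Of the 11 probes, 8 were higher with nitrate on both arrays, 1 was lower and 2 changed sign. All 25 probes of the root marker list were above background in both channels, as were 129 of 140 leaf marker probes in the nitrate channel and 130 in the control channel. For seed markers the counts were 190 and 189 of 323, and for pollen markers 37 and 38 of 41. The log2 ratios of the root markers ran from -0.52 to 1.33 with a median of 0.24, with 13 higher on both arrays and 3 lower. The part of these markers in the results on calcium probes was not tested.

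Nearly all calcium probes were above background, as were most maize probes of the arrays, and none passed the test. The background limit of a channel was the 95th percentile of the blank and buffer spots of that array. By it, 225 of 233 calcium probes were above background in both channels on both arrays. So were 50413 of the 55896 maize probes with a ratio on both arrays. The test was run on the 228 with at least 1 channel above background on both arrays. Of these 228, 0 passed limma's test at an adjusted p of 0.05, where the background was 0% of the 28374 tested probes of version A and 0.0525% of the 24746 of version B. The smallest adjusted p of a calcium probe was 0.164. Without adjustment, limma's p was under 0.05 for 20 calcium probes that were higher with nitrate, or 8.77%, against a background of 7.59%. It was under 0.05 for 10 that were lower, or 4.39%, against 4.86%. These shares lie near the background, and no other test was run on the group.

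Intensities below are as deposited, before normalization, so their quotient is not the normalised ratio printed beside them. The normalised log2 ratio of nitrate over control, averaged over the 2 arrays, lay between -0.5 and 0.5 for 183 of the 228 tested probes (80.3%, against 81.8% of all tested probes). Its median was 0.08 for the calcium probes, 0.03 in replicate 1 and 0.06 in replicate 2, and 0.00 for all 53120 tested probes. The sign was the same on both arrays for 148 calcium probes, 87 of them higher with nitrate (38.2%, against 30.1% of all tested probes) and 61 lower (26.8%, against 30.4%). It differed between the arrays for the other 80 probes (35.1%, against 39.6%). Across the calcium probes the 2 arrays correlated at r = 0.37 (Spearman's rho 0.35), and across all tested probes at r = 0.28. These are correlations over probes on the same arrays, which share dye orientation and normalization, and probes are not independent replicates. With median centring in place of loess, the median of the calcium probes was -0.05, against -0.02 for all tested probes, and 54 of the 228 changed sign. The median of the calcium probes was 0.07 with no normexp and with print-tip loess. It was 0.08 with scaling between arrays and 0.09 with the authors' deposited ratios. The small excess of positive values thus depends on the scaling in that median centring turned its sign.

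A ratio of at least 1.5-fold in the same direction on both arrays was reached by 7 calcium probes higher with nitrate, or 3.07% of those tested, against a background of 3.0%. It was reached by 6 lower with nitrate, or 2.63%, against 1.52%. At 2-fold on both arrays there was 1 probe higher, against a background of 0.591%, and 0 lower, against 0.0941%. The 2-fold count of higher probes was 4 with no normexp, 3 with median centring, 3 with the authors' deposited ratios and 0 with print-tip loess, and that of lower probes was 2 with median centring. The 2-fold shares of all tested probes under these settings are not given here, so these counts have no background to be read against. The 1.5-fold share of all tested probes that were higher also moved, from 2.58% with print-tip loess to 5.24% with median centring. With print-tip loess, which normalises each block of spots by itself, 0 of the calcium probes were 1.5-fold lower on both arrays, against 1.05% of all tested probes. With the authors' deposited ratios 2 calcium probes were 1.5-fold lower and 12 higher, or 0.877% and 5.26%, against 1.91% and 4.51% of all tested probes.

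Several roles were represented among the 13 probes past 1.5-fold. Those higher with nitrate were a calreticulin, an annexin, a CDPK, a calmodulin-dependent kinase, a cyclic nucleotide-gated channel and 2 probes for calmodulin-binding proteins. Those lower with nitrate were 2 CDPKs, 2 probes that share a description as a calmodulin-binding transcription factor, a calmodulin and an annexin. Thus CDPKs, calmodulin-binding proteins and annexins had members on both sides. For the counts by role below, 30.1% of all tested probes were higher on both arrays, 30.4% were lower and 39.6% changed sign. Their share with an unadjusted limma p under 0.05 was 7.59% higher and 4.86% lower. In a small role a single probe moves the share by several percent.

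Calmodulin is the small, highly conserved sensor that binds calcium through EF-hands and then activates enzymes and channels. Of 31 tested calmodulin and calmodulin-like probes, 13 were higher with nitrate on both arrays, 8 were lower and 10 changed sign. Their median log2 ratio was 0.01, but -0.28 with median centring, -0.08 with print-tip loess and -0.09 with the authors' deposited ratios, so its sign depends on the scaling. Of the 31, 0 passed the adjusted test, with unadjusted limma p under 0.05 for 2 higher (6.45%) and 1 lower (3.23%). The lowest was the calmodulin probe MZ00031310, with intensities of 2706 and 3073 on the nitrate side, against 5501 and 4825 on the control side. On each array the nitrate reading was thus below the control reading. Its log2 ratio was -0.81 and -0.66 on the 2 arrays, a mean of -0.73 ± 0.11 (SD, n = 2; limma adjusted p = 0.338). The calmodulin-like probe with the highest mean, MZ00003281, read 2151 and 3483 with nitrate, against 1670 and 1709 on the control side, and its log2 ratio was 0.66 ± 0.32 (SD, n = 2; limma adjusted p = 0.384).

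Some calmodulin spots were too bright to give a fold. Probe MZ00043504, described after rice calmodulin 1, read 63477 and 63222 with nitrate, against 73977 and 63407 on the control side, where it lay at the top of the scanner's range on both arrays. Intensities at the top of the range are truncated, so no fold is given for it. In all, 13 calcium probes had a saturated channel on at least 1 array, and 5 had one on both arrays. These 5 enter the counts and medians with their truncated values. The other 4 probes described after rice calmodulin 1 had log2 ratios from -0.35 to 0.08. The 5 probes described after one Arabidopsis calmodulin ran from -0.23 to 0.59, with 3 higher and 2 lower on both arrays. Another probe, MZ00025657, is described as maize calmodulin cam2 and changed sign between arrays, with log2 ratios of -0.45 and 0.47.

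Cyclic nucleotide-gated channels are cation channels of the plasma membrane that can let calcium in and that calmodulin binds and regulates. They had a median log2 ratio of 0.23 over 16 tested probes. Of these, 7 were higher with nitrate on both arrays, 1 was lower and 8 changed sign, and 0 passed the adjusted limma test, with unadjusted p under 0.05 for 2 higher and 0 lower. The median was 0.26 in replicate 1 and 0.04 in replicate 2. It was 0.04 with median centring, 0.20 with print-tip loess and 0.23 with the authors' deposited ratios. The group median was thus larger in replicate 1 and smaller with median centring.

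Within the channels, 4 probes are described after Arabidopsis channel 17. Probe MZ00007587 read 288 and 418 with nitrate, against 96 and 102 on the control side. All 4 readings were above the background limit, and on each array the nitrate reading was above the control reading. Its log2 ratio was 0.66 and 0.96, a mean of 0.81 ± 0.21 (SD, n = 2; limma adjusted p = 0.315), and the probe fell short of 1.5-fold on replicate 1 with print-tip loess, at 0.57. The mean of MZ00007587 was 1.25 with no normexp, 1.14 with median centring and 1.40 with the authors' deposited ratios. The size of its ratio thus depends on the processing. The next of these probes, MZ00031548, read 1750 and 3439 with nitrate, against 1328 and 1424 on the control side, for log2 ratios of 0.42 and 1.10. The other two averaged 0.25 and 0.04, and with median centring 2 of the 4 averaged below 0. Probes MZ00049936 and MZ00049940, both for channels, were not tested because neither channel of the array was above background in replicate 1.

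CDPKs formed the largest role of the group by number of probes and were evenly divided in direction. Of 77 probes, 76 were tested, and 26 were higher with nitrate on both arrays, 26 were lower and 24 changed sign. Their log2 ratios ran from -0.96 to 1.00 with a median of 0.06 that was -0.05 with median centring and -0.02 with print-tip loess and with the authors' deposited ratios. Of these, 0 passed the adjusted limma test, with unadjusted p under 0.05 for 5 higher and 5 lower (6.58% each). The probe left out, MZ00001528, is described after maize CDPK 7 and was not above background.

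The CDPK with the highest ratio was MZ00043881, described as calcium-dependent protein kinase 2. It read 3189 and 10206 on the nitrate side, against 1752 and 4461 on the control side. Within each array nitrate was higher, while the 2 arrays differed in level. The log2 ratio was 0.97 and 1.03, a mean of 1.00 ± 0.04 (SD, n = 2), with a 95% interval of 0.47 to 1.53 and a limma adjusted p of 0.164, the smallest in the whole group. It stayed past 1.5-fold on both arrays under all 9 settings tried with both arrays, between 0.85 and 1.04 on average. Settings that change only the filter on dim probes or limma's prior leave the ratio itself unchanged and could not move it. Next came MZ00037456 at 0.87 ± 0.45 (SD, n = 2), from 2077 and 4840 with nitrate, against 1478 and 1687 on the control side. This second kinase was 1.5-fold higher on replicate 2 only.

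At the other end, CDPK probe MZ00044099 read 7237 and 8634 with nitrate, against 20233 and 15390 on the control side. Within each array the control reading was higher. The log2 ratio was -1.05 and -0.88, a mean of -0.96 ± 0.12 (SD, n = 2), with a 95% interval of -1.50 to -0.43 and a limma adjusted p of 0.178. Print-tip loess gave -0.89 and -0.56, just short of 1.5-fold on replicate 2. CDPK probe MZ00035549 read 1596 and 1607 with nitrate, against 2882 and 3029 on the control side, for log2 ratios of -0.65 and -1.17 (mean -0.91 ± 0.37, SD, n = 2; limma adjusted p = 0.206). CDPK probe MZ00044098 read 8525 and 8255 with nitrate, against 22989 and 11447 on the control side, for log2 ratios of -0.99 and -0.55 (mean -0.77 ± 0.31, SD, n = 2; limma adjusted p = 0.263). These 3 kinases were the lowest of all CDPK probes tested.

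All 3 are described after the same rice kinase, and so is MZ00037456. In all, 15 tested probes with 15 different target sequences share that protein as their closest hit, and they spanned log2 ratios from -0.96 to 0.87. Of these, 5 were higher with nitrate on both arrays, 6 were lower and 4 changed sign. The shared description therefore did not go with a shared direction. Within it, MZ00044100 and MZ00044236 averaged -0.44 and -0.38, while MZ00020273 read 564 and 1278 with nitrate, against 1095 and 482 on the control side, a log2 ratio of -0.87 in replicate 1 and 1.00 in replicate 2. Probes for a kinase family this large may take up RNA of close copies, and the annotation does not settle which maize gene each one reports.

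Smaller sets of CDPK probes also shared one protein hit. The 4 probes described after maize CDPK 7 lay between 0.11 and 0.28, with 3 higher on both arrays and 1 of mixed sign, but with median centring 3 of the 4 averaged below 0 (median -0.16). The 4 probes described after a maize kinase from strain W64A lay between 0.10 and 0.60, and 3 of them changed sign between arrays. With median centring, print-tip loess or the authors' deposited ratios, 1 of these 4 averaged below 0. For a second rice kinase, 5 probes lay between -0.21 and 0.19, and for another, 4 of 5 probes were lower on both arrays while MZ00048564 averaged 0.45. The brightest kinase probe, MZ00025081, was saturated on the control side on both arrays, at 66721 and 56866, beside 66604 and 38092 with nitrate, so that no fold is given for it.

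CDPK-related kinases carry EF-hands that have lost much of their calcium binding. Their 6 probes had log2 ratios from -0.46 to 0.11, with 0 higher on both arrays, 2 lower and 4 of mixed sign. Calcium/calmodulin-dependent kinases, which need calmodulin as a separate activator, had 7 probes from -0.27 to 0.72. The highest, MZ00032414, read 873 and 1932 with nitrate, against 492 and 922 on the control side, and its log2 ratio was 0.63 and 0.81 (mean 0.72 ± 0.13, SD, n = 2; limma adjusted p = 0.344). It fell short of 1.5-fold on replicate 1 with print-tip loess, at 0.56. The other 4 probes with the same protein hit lay between -0.27 and 0.17, and 2 of them changed sign. Proteins described as CDPK substrates or adapters had 4 probes between 0.05 and 0.64, with 3 higher on both arrays. Adapter MZ00018985 was the most even over arrays, at 0.44 and 0.40.

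Calmodulin-binding proteins are the targets through which calmodulin acts, and they included 2 of the 5 highest and 2 of the 5 lowest probes of the whole group. Of 33 tested probes, 13 were higher with nitrate on both arrays, 11 were lower and 9 changed sign. The median log2 ratio was -0.03, and it was above 0 with median centring (0.04), print-tip loess (0.05) and the authors' deposited ratios (0.14). Of the 33, 0 passed the adjusted limma test, with unadjusted p under 0.05 for 4 higher (12.1%) and 3 lower (9.09%).

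Proteins described as similar to ER66, an ethylene-responsive calmodulin-binding protein first described in tomato, had 8 tested probes with 5 target sequences. Their log2 ratios ran from -0.25 to 1.04 with a median of 0.39, and 5 were higher on both arrays, 2 lower and 1 mixed. The highest, MZ00010054, read 691 and 2201 with nitrate, against 440 and 541 on the control side. Nitrate was higher on both arrays, mostly on the second, where the log2 ratio was 1.64, against 0.44 on the first (mean 1.04 ± 0.85, SD, n = 2; limma adjusted p = 0.340). Probe MZ00049537 read 433 and 199 with nitrate, against 38 and 12 on the control side. Its control side was not above background on either array, so the fold is a bound, computed as the mean nitrate level over the mean of, on each array, the lowest control signal above background or the probe's own value where higher. By it the probe was at least 1.71-fold higher with nitrate (limma adjusted p = 0.195), and it was left out where both channels had to be above background. In the other 8 settings with both arrays its ratio was past 1.5-fold on each array, as ratios to a control signal below the background limit. Those that change only the filter or the prior could not move the ratio.

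Different probes for one ER66-like sequence did not give one value. Probes MZ00034924, MZ00025256 and MZ00025257 name the same target and averaged -0.25, 0.22 and 0.63, a spread of 0.87. Probes MZ00034923 and MZ00025255 name a second target and averaged -0.18 and 0.56. In each case the lowest probe was dim, with 250 and 157 for MZ00034924 on the nitrate side, against 194 and 163 on the control side. The other 4 targets with more than 1 calcium probe had spreads of 0.14 to 0.36, and the median spread over all 6 was 0.27. Probes of one target thus differed by up to 0.87, and whether probes of a family differ by more than this was not tested. A further ER66-like probe, MZ00048263, was not tested because neither channel was above background in replicate 1.

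A putative calmodulin-binding transcription factor named after a rice protein had 4 probes with 4 target sequences, and all 4 averaged below 0, from -0.80 to -0.18. Probe MZ00044051 on version B read 8474 and 9598 with nitrate, against 17712 and 18528 on the control side. The nitrate readings lay well below the control readings on both arrays. Its log2 ratio was -0.63 and -0.97, a mean of -0.80 ± 0.24 (SD, n = 2; limma adjusted p = 0.238). Probe MZ00026588 on version A read 5703 and 4240 with nitrate, against 11504 and 8196 on the control side, for log2 ratios of -0.71 and -0.88 (mean -0.79 ± 0.12, SD, n = 2; limma adjusted p = 0.316). A probe on each array version thus gave nearly the same value. Of the other two, MZ00026587 was lower on both arrays at -0.36, and MZ00017177, the brightest calmodulin-binding probe, changed sign at 0.11 and -0.46. All 4 stayed below 0 on average under all 9 settings that use both arrays, with a median of the 4 between -0.78 and -0.45. Of these, the settings that change only the filter or the prior could not move the averages. With print-tip loess MZ00044051 and MZ00026588 averaged -0.56 and -0.67 and neither was past 1.5-fold on both arrays. These 4 probes were singled out after their values were seen, so their common direction carries no test.

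Among other calmodulin-binding proteins, MZ00040052 read 929 and 1461 with nitrate, against 464 and 332 on the control side. Nitrate was higher on both arrays, with log2 ratios of 0.57 and 1.33 (mean 0.95 ± 0.54, SD, n = 2; limma adjusted p = 0.210). The other two probes with its protein hit averaged -0.10 and 0.20. Probe MZ00021652, described only by a calmodulin-binding motif, read 12180 and 11313 with nitrate, against 9928 and 7801 on the control side, for log2 ratios of 0.62 and 0.67. This probe averaged 0.39 with print-tip loess, 0.38 with the authors' deposited ratios and 0.36 with median centring, below 1.5-fold in each. The 3 probes described after a maize calmodulin-binding fragment averaged -0.56, -0.42 and 0.21.

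Reading all such sets together, 26 protein hits had at least 3 tested probes, 123 probes in all. Sets in which every probe averaged to one sign had 3 or 4 probes. The 4 probes for the maize calreticulin precursor all averaged below 0, but 1 of them averaged above 0 with print-tip loess and with the authors' deposited ratios.

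Annexins, which bind membrane phospholipids when calcium is present, had values on both sides. Of 10 tested probes, 4 were higher with nitrate on both arrays, 3 were lower and 3 changed sign. The median log2 ratio was 0.19, and it was 0.01 with median centring, 0.20 with print-tip loess and 0.19 with the authors' deposited ratios. Of the 10, 0 passed the adjusted limma test, with unadjusted p under 0.05 for 1 higher and 1 lower (10.0% each). The median was 0.28 in replicate 1 and -0.14 in replicate 2, so the arrays disagreed in sign for the annexins as a set. The maize annexin P35 probe MZ00014129 read 9260 and 15256 with nitrate, against 2898 and 10738 on the control side. Its log2 ratio was 1.86 and 0.70 (mean 1.28 ± 0.82, SD, n = 2; limma adjusted p = 0.288).

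A second probe for annexin P35, MZ00037263 on version B, was the brightest annexin and read 31030 and 47760 with nitrate, against 16378 and 62438 on the control side. Nitrate was higher in replicate 1 and lower in replicate 2, with log2 ratios of 1.37 and -0.29 (limma adjusted p = 0.571). Both P35 probes were thus higher in replicate 1 than in replicate 2. Annexin MZ00015732 had the same order, at 1.00 and 0.01. The lowest annexin, MZ00015733, read 4705 and 4661 with nitrate, against 9127 and 8282 on the control side, and was close on both arrays at -0.68 and -0.75 (mean -0.71 ± 0.05, SD, n = 2; limma adjusted p = 0.342). Annexin-like probe MZ00046464 was not tested, since neither channel was above background in replicate 2.

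Calreticulin held the largest ratio in the group that held on both arrays. Probe MZ00028428, described as a putative calreticulin, read 4333 and 10088 with nitrate, against 1768 and 4593 on the control side. Nitrate was more than 2-fold higher on each array. The log2 ratio was 1.38 and 1.20, a mean of 1.29 ± 0.12 (SD, n = 2), with a 95% interval of 0.75 to 1.82 and a limma adjusted p of 0.197. It was the probe that made the 2-fold count above, and it passed 1.5-fold under all 9 settings that use both arrays, between 1.11 and 1.32 on average. Of these, the settings that change only the filter or the prior could not move its ratio. With print-tip loess it was 1.36 and 0.87, short of 2-fold on replicate 2.

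The other calreticulin probes did not share this value. The other 4 probes with the same protein hit averaged -0.32 to 0.28. Over all 17 calreticulin probes the median log2 ratio was 0.21, with 8 higher on both arrays, 4 lower and 5 mixed. The median was -0.11 with median centring, and 0.14 with print-tip loess and with the authors' deposited ratios. A second calreticulin hit had 6 probes between -0.03 and 0.72, with 4 higher on both arrays, 0 lower and 2 mixed, and with median centring 3 of the 6 averaged below 0. In that set, MZ00039215 read 24908 and 34601 with nitrate, against 17440 and 25641 on the control side, for log2 ratios of 0.96 and 0.48 (mean 0.72 ± 0.34, SD, n = 2; limma adjusted p = 0.290). Maize calreticulin precursor MZ00012607, the lowest of the chaperones, averaged -0.34 ± 0.38 (SD, n = 2; limma adjusted p = 0.606), from 595 and 812 with nitrate, against 847 and 590 on the control side.

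Several calreticulin and calnexin spots were truncated at the top of the scanner's range. Calreticulin MZ00041979 was saturated in both channels on both arrays, at 73691 and 63220 with nitrate, beside 73936 and 63338 on the control side, and has no fold. Calreticulin MZ00041978 was saturated on the control side on both arrays. After loess the bound was 1.04-fold lower with nitrate (limma adjusted p = 0.946). Its log2 ratios as deposited by the authors were 0.15 and 0.04, higher with nitrate, so no direction is read from it. The single calnexin probe, MZ00040728, read 55834 and 63339 with nitrate, beside 73964 and 63379 on the control side, and was saturated on the control side on both arrays.

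Calcium pumps use ATP to move calcium out of the cytosol. The 9 pump probes had mean log2 ratios from -0.03 to 0.50, with 4 higher on both arrays, 0 lower and 5 of mixed sign. On single arrays they ran from -0.59 to 0.99, and the median SD between arrays was 0.47, against 0.22 over all calcium probes. None reached 1.5-fold on both arrays, and 0 had a limma p under 0.05, adjusted or not. The highest, MZ00033002, read 219 and 511 with nitrate, against 132 and 167 on the control side, and its log2 ratio was 0.17 and 0.83 (mean 0.50 ± 0.47, SD, n = 2; limma adjusted p = 0.468). The brightest, MZ00051285, read 6387 and 4382 with nitrate, against 9277 and 3457 on the control side, and changed sign at -0.16 and 0.11. A plasma membrane-type pump, MZ00026699, averaged 0.12 ± 0.04 (SD, n = 2; limma adjusted p = 0.866). The median over pumps was 0.18, and it was 0.15 in replicate 1, 0.36 in replicate 2 and 0.40 with median centring.

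Other EF-hand and calcium-binding proteins changed sign between arrays more often than not. Of 15 probes, 4 were higher on both arrays, 3 were lower and 8 were mixed, with a median log2 ratio of 0.08, and 0 had a limma p under 0.05, adjusted or not. The highest, MZ00033527, read 846 and 627 with nitrate, against 422 and 378 on the control side, for log2 ratios of 0.75 and 0.30 (mean 0.53 ± 0.32, SD, n = 2; limma adjusted p = 0.434). The lowest was MZ00048745, a calcium-binding protein, at -0.15 and -0.57 (mean -0.36 ± 0.30, SD, n = 2; limma adjusted p = 0.580). The brightest, MZ00016998, described as the EF-hand protein CCD1, read 7163 and 11556 with nitrate, against 13856 and 12749 on the control side, and averaged -0.29 ± 0.48 (SD, n = 2; limma adjusted p = 0.664). For polcalcin, a small pollen protein with EF-hands, 3 probes lay between -0.31 and 0.08.

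The last 3 probes are for proteins that bind lipids in the presence of calcium. MZ00046437 read 932 and 942 with nitrate, against 466 and 349 on the control side. Nitrate was higher on both arrays, with log2 ratios of 0.57 and 0.68 (mean 0.63 ± 0.07, SD, n = 2; limma adjusted p = 0.324). The other two, MZ00028331 and MZ00001971, averaged 0.23 and -0.09.

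Neighbouring parts of calcium signalling were counted by the same rules. Channels, exchangers, phosphoinositide enzymes and respiratory burst oxidases outside the group had 143 tested probes with a median log2 ratio of 0.03. Of these, 2.80% were 1.5-fold higher on both arrays and 0.699% lower, against 3.0% and 1.52% of all tested probes. Respiratory burst oxidases, membrane enzymes with EF-hands that make superoxide, gave both extremes of that list. MZ00031247 read 9767 and 6078 with nitrate, against 1100 and 2746 on the control side, a log2 ratio of 3.18 and 1.11 (limma adjusted p = 0.260). MZ00016086 read 3509 and 5478 with nitrate, against 17618 and 5335 on the control side, a log2 ratio of -1.91 and -0.14 (limma adjusted p = 0.314).

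Calcineurin B-like sensors and the CIPK kinases that they activate had 27 tested probes with a median of -0.10, with 3 higher on both arrays, 11 lower and 13 mixed. Of these, 0 were 1.5-fold higher on both arrays and 2 were lower (7.41%, against 1.52% of all tested probes). None passed the adjusted limma test. Unadjusted limma p was under 0.05 for 2 higher (7.41%, against 7.59%) and 3 lower (11.1%, against 4.86%). CIPK23, which in Arabidopsis phosphorylates a nitrate transporter, was the lowest as MZ00005879. It read 3169 and 2233 with nitrate, against 8197 and 4155 on the control side, a log2 ratio of -1.02 and -1.12 (mean -1.07 ± 0.07, SD, n = 2; limma adjusted p = 0.151). The highest, calcineurin B probe MZ00038184, had log2 ratios of 1.03 and 0.24 (limma adjusted p = 0.369).

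By contrast with the calcium probes, 5 of the 11 nitrate and nitrite reductase probes were 1.5-fold higher on both arrays and 0 lower. The higher ones were 45.5%, against 3.0% of all tested probes, and the median log2 ratio of the 11 was 0.76. The lowest of them, nitrate reductase MZ00050877, averaged -0.32 (limma adjusted p = 0.636). The difference between these lists and the calcium probes was not tested.

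Of the 13 probes past 1.5-fold on both arrays, 2 stayed past it in every setting that uses both arrays, calreticulin MZ00028428 and CDPK MZ00043881, both higher with nitrate. None of the 6 lower ones did, because none of them reached it on both arrays with print-tip loess, although each kept a negative mean ratio there. Settings that change only the filter or the prior leave the ratios unchanged, so only the other settings could move a ratio across 1.5-fold.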

How the data were processed

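RNA of nitrate-treated and control root parts was compared on 4 arrays with 2 colours, Cy3 for nitrate and Cy5 for control per the labels. The authors deposited a whole-number intensity per spot and dye, some below 0, so that a background had been subtracted, and a linear ratio of nitrate over control with medians between 0.996 and 1.01. How both were made is not given in the sources used here. Values in the series table matched this ratio to within 0.0001 on 100% of spots.

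From these intensities, log2 ratios were recomputed in R 4.3.3 by limma 3.58.1 (normexp with an offset of 50, global loess within each array). Control spots and 4 to 10 spots per array flagged B had weight 0, and repeated spots of a probe were averaged. A probe was tested where at least 1 channel lay above the 95th percentile of blank spots on both arrays. The mean log2 ratio of each version was tested against 0 (lmFit, eBayes), with Benjamini-Hochberg adjustment over all 28374 and 24746 tested probes and a threshold of 0.05. A spot at 99% or more of its channel's maximum was called saturated. Each fit has 1 residual degree of freedom of its own and borrows the remainder from a spread pooled over probes. The number of arrays limits the precision.

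The members, role classes and lists were chosen with earlier results of these data known. Probes were named by rule: per role the highest and lowest of one sign and the brightest, the 5 highest and 5 lowest over all roles, and any 2-fold on both arrays. Others described were chosen after their values were seen, including all probes at 1.5-fold and the sets with a shared protein hit. In the naming rule, cyclic nucleotide-gated channels counted with the calmodulins. CDPK-related and calmodulin-dependent kinases, substrates and adapters counted with the CDPKs, and calnexin with calreticulin. The finer roles used in the Results were read from the annotation text and were not part of that rule. Tables were made with Python 3.11.15 (pandas 2.3.3, numpy 2.4.6). No probe sequence was used here, and probes were not placed on a genome.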

Additional observations from a re-analysis of the deposited data

How the results depend on the processing

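Under 8 other settings that use both arrays, 0 calcium probes passed limma's adjusted test, and the smallest adjusted p of a calcium probe ran from 0.0667 (median centring) to 0.393 (deposited ratios). With no normexp, 11 probes were 1.5-fold higher on both arrays, or 4.82%, against 4.36% of all tested probes. With median centring, 26 had an unadjusted p under 0.05 and were lower, and 12 were 1.5-fold lower on both arrays. The 12 were 5.26%, against 3.76% of all tested probes. The median log2 ratio was -0.050, and median centring minus loess was -0.13 over the calcium probes and -0.02 over all tested probes. With print-tip loess, 0 were 1.5-fold lower, against 1.05% of all tested probes. With the authors' deposited ratios, 4 had an unadjusted p under 0.05 and were lower, 12 were 1.5-fold higher and 2 were 1.5-fold lower. The 12 and the 2 were 5.26% and 0.877%, against 4.51% and 1.91% of all tested probes. For the unadjusted counts under these settings, the shares over all tested probes are not given here. On a single array, without replicate 1 or without replicate 2, 20 to 36 probes were 1.5-fold higher and 15 to 18 lower. Without replicate 1, 15.8% were higher and 6.58% lower, against 12.9% and 7.38% of all tested probes. Without replicate 2, 8.77% were higher and 7.89% lower, against 9.53% and 9.29%. The median was 0.032 to 0.063. A single array leaves no residual spread, so there is no limma p. Scaling between arrays, no filter on dim probes, the stricter filter and the trended robust prior kept these counts within 1.5 times. Of 280 recomputed log2 ratios of the 28 probes named by rule, 268 kept their direction. Many of the 280 could not have turned. The changed filters on dim probes and the trended robust prior leave each ratio as it was. Probes named as highest or lowest had the same sign on both arrays by rule, so leaving out 1 replicate could not turn them. The count is therefore no measure of stability. With median centring the sign turned for MZ00025081 (-0.34), MZ00026699 (-0.026), MZ00028331 (-0.16), MZ00041979 (-0.16) and MZ00043504 (-0.27). Of these, MZ00025081, MZ00041979 and MZ00043504 were saturated on both arrays, so their values are truncated and no direction is read from them. MZ00001971 turned to 0.018 with print-tip loess and to 0.020 with deposited ratios. Leaving out 1 replicate turned the sign of MZ00016998 (-0.62 to 0.050 over the single arrays), MZ00025081 (-0.23 to 0.43), MZ00037263 (-0.29 to 1.36), MZ00051285 (-0.16 to 0.11) and MZ00017177 (-0.46 to 0.11). The cause of these changes was not tested. No paired analysis was possible because a block by replicate number would use up the 1 residual degree of freedom, and nitrate and control are already paired within each array by the ratio. Dim probes and saturated spots limit what these arrays can show.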
